A study of Mus musculus with 12 samples.

Results

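The 10 genes described here encode proteins that shape the cristae of the mitochondrial inner membrane, namely subunits and partners of the mitochondrial contact site and cristae organizing system (MICOS) and the coiled-coil-helix-coiled-coil-helix (CHCHD) proteins Chchd2, Chchd4 and Chchd10. They were picked by gene symbol from a count table of 55471 genes, and each symbol matched 1 row. The set was chosen because Chchd10 was far lower in the knockdown, so the knockdown values below are given as a description, without a p-value or a call for any of these 10 genes. How many of them passed the threshold is given beside the share or number of all genes called, and nothing is read from it. All 10 passed the filter on low counts, as did 18228 genes in all.

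The cells were dendritic cells grown from the bone marrow of adult female C57BL/6 mice in granulocyte-macrophage colony-stimulating factor. All of them carried a retroviral short hairpin RNA (shRNA) and a human CD8 reporter on which they were sorted. The hairpin was directed against firefly luciferase (shControl) or against Ppargc1b (shPpargc1b), the gene of the transcriptional coactivator PGC-1β, and cells were left unstimulated or given interferon-β (IFN-β) for 6 h. There were 4 groups of 3 total RNA libraries, with totals of 49919648 to 77726101 counts. The control hairpin had no mouse target, and the knockdown was partial. The labels name no hairpin, while the results text of the study gives shPpargc1b #1 as the one used for most of its experiments. The labels do not say that the 3 libraries of a group came from separate cultures or mice, so p-values measure only the spread between these samples, which may be technical.

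Cristae are the folds of the inner membrane that hold the respiratory chain. MICOS sits at the narrow necks of these folds, the cristae junctions, where it bends the membrane and, through the sorting and assembly machinery of the outer membrane, ties the inner to the outer membrane. CHCHD proteins carry paired cysteine motifs (twin CX9C) that are oxidised on import into the intermembrane space by a disulfide relay whose receptor is Chchd4. PGC-1β binds no DNA itself and acts through factors such as the estrogen-related receptors (ERR) and nuclear respiratory factors.

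Levels below are CPM, that is counts relative to library size, with library sizes adjusted by TMM factors (trimmed mean of M-values), and the 3 values of a group are given in the order of its replicates. Ppargc1b, the targeted gene (ENSMUSG00000033871), was at 33.4, 33.3 and 36.7 CPM in unstimulated shControl cells and at 18.6, 19.3 and 20.3 CPM in unstimulated shPpargc1b cells. With IFN-β it was at 31.4, 23.6 and 28.4 CPM in shControl and at 19.6, 15.5 and 20.9 CPM in shPpargc1b cells. The groups did not overlap in either condition, with log2 fold changes of -0.83 ± 0.10 (SE, n = 3 against 3, adjusted p = 3.25e-05, edgeR) and -0.57 ± 0.11 (adjusted p = 9.45e-04).

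The dendritic cell markers Itgax and H2-Ab1 were abundant, with group means of 949 to 1154 CPM and 600.1 to 730 CPM. No library stood apart from its group on the first principal components. Marker lists moved with the groups. Of 8 dendritic-like markers (7 tested), 4 were higher in the knockdown without IFN-β (12.4% of all tested genes were) and 5 with it (11.5% of all), and their summed level was 1789 to 2073 CPM in shControl against 2145 to 2337 CPM in shPpargc1b unstimulated, and 1974 to 2329 against 2380 to 2548 CPM with IFN-β. Of 8 macrophage-like markers, 2 were lower in the knockdown without IFN-β (11.1% of all genes) and 4 with it (12.7% of all), their summed levels being 2099 to 2253 against 2044 to 2106 CPM, and 2771 to 3014 against 2469 to 2680 CPM. With IFN-β 5 of the 8 rose in each shRNA, beside 23.7% of all genes in shControl and 21.4% in shPpargc1b cells. Neutrophil-like markers summed to 41.0 to 95.9 against 90.04 to 158 CPM and mast cell or basophil-like markers to 8.80 to 17.5 against 22.3 to 26.6 CPM, both without IFN-β. With IFN-β the sums were 39.1 to 101 against 87.3 to 164 CPM and 7.84 to 15.8 against 12.99 to 22.3 CPM. In either condition 1 of 8 neutrophil-like and 2 of 7 mast cell or basophil-like markers were called higher in the knockdown, and 3 of the 8 neutrophil-like markers had log2 fold changes below 0. The share of counts on mitochondrially encoded genes was 3.17% to 3.24% in unstimulated shControl, 2.85% to 2.97% in unstimulated shPpargc1b, 2.20% to 2.34% in shControl with IFN-β and 2.20% to 2.57% in shPpargc1b cells with IFN-β. Lymphocyte-like and erythroid-like markers each stayed under 1 CPM in sum and no marker was at 0 in every library. The part of these shifts in the values below was not tested, and in bulk RNA fewer cells of a type cannot be told apart from less RNA per cell.

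The start regions of 5 of the genes are printed because they include the gene with the largest knockdown difference (Chchd10), the gene with the largest rise with IFN-β (Apool) and genes that hold the letters of a factor's motif. RefSeq (GRCm38.p6) gave a window of 250 bases before to 50 bases after the start site for 9 of the 10 genes. Capitals mark matches, on either strand, to AAGGTCA (the nuclear receptor half-site, which lies within the extended ERR half-site), GCGCANGCG (nuclear respiratory factor 1) or CCGGAAG (the ETS core bound by nuclear respiratory factor 2). The windows are Chchd10, chr10:75932880-75933179, plus strand, Immt, chr6:71831070-71831369, plus strand, Chchd4, chr6:91473374-91473673, minus strand, Chchd6, chr6:89595603-89595902, minus strand, and Apool, chrX:112311102-112311401, plus strand.
Chchd10: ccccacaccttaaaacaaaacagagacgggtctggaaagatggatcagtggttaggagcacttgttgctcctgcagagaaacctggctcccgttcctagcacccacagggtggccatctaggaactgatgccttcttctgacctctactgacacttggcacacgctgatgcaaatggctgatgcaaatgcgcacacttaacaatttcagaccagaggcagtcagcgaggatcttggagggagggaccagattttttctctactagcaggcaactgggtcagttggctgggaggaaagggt
Immt: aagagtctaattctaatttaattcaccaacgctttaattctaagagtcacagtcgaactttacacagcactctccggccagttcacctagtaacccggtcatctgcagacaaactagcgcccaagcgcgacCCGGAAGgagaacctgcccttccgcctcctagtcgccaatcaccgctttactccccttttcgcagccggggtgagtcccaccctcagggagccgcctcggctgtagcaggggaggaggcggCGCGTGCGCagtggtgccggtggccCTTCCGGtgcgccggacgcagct
Chchd4: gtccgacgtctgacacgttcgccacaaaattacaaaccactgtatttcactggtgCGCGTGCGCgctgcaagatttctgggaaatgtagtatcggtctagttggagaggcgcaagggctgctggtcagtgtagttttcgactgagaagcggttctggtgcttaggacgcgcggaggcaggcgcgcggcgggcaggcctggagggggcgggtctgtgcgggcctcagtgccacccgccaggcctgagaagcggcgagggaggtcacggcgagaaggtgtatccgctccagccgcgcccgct
Chchd6: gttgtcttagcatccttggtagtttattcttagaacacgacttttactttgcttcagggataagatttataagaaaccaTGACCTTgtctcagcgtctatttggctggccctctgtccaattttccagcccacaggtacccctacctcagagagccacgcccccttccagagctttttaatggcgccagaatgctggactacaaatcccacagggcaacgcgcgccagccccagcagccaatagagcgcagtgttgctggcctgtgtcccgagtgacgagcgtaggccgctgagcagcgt
Apool: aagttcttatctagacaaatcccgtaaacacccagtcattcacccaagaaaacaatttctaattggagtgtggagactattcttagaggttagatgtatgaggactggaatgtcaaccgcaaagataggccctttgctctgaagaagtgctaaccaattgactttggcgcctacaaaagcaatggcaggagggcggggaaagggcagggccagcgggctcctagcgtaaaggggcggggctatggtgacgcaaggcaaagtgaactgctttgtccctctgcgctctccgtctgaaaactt

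Positions are counted from the start site as +1. The nuclear respiratory factor 1 letters stood at +3 in Immt and at -195 in Chchd4, in 2 of 9 genes and in 6.25% of all 32851 windows. ETS core letters stood at -119 and +28 in Immt, at -130 in Chchd3 and at -25 and +7 in Mtx2, in 3 of 9 genes and in 8.86% of windows. The half-site stood at -171 in Chchd6 alone, against 4.72% of windows. The extended ERR half-site TNAAGGTCA (1.28% of windows) and the interferon-stimulated response element letters GAAANNGAA (8.56% of windows) were in no window of the 9 genes. These are matches of letters and not evidence of binding.

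Chchd10 (ENSMUSG00000049422, GRCm38 chr10:75933130-75937747, plus strand) encodes a twin CX9C protein of the intermembrane space that binds MICOS and whose mutations in humans cause motor neuron disease and mitochondrial myopathy. It was at 25.1, 23.4 and 26.1 CPM in unstimulated shControl cells and at 5.63, 5.37 and 5.90 CPM in unstimulated shPpargc1b cells. With IFN-β it was at 17.9, 14.6 and 15.9 CPM in shControl and at 3.71, 3.99 and 3.88 CPM in shPpargc1b cells. No library of one group overlapped with any of another group.

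The knockdown log2 fold change of Chchd10 was -2.14 ± 0.08 unstimulated and -2.06 ± 0.09 with IFN-β (SE, n = 3 against 3), or 0.227-fold and 0.240-fold. These are the values on which the set was selected. The selection did not use the IFN-β contrasts, but these share the unstimulated libraries with it, so their p-values are not independent of the selection. IFN-β lowered Chchd10 by a log2 fold change of -0.63 ± 0.08 in shControl (adjusted p = 5.93e-06, edgeR quasi-likelihood test with Benjamini-Hochberg adjustment). In shPpargc1b cells the log2 fold change with IFN-β was -0.54 ± 0.09 (adjusted p = 1.49e-04, same test). The difference between both responses was 0.08 ± 0.12 (adjusted p = 0.899). Leaving out any single library kept the IFN-β value between -0.70 and -0.56 in shControl and between -0.57 and -0.51 in shPpargc1b cells.

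Chchd10 overlaps 2 neighbours, and whether reads were counted by strand is not stated. Mmp11 lies on the opposite strand with 155 shared exon bases and held 141 counts over all 12 libraries, and Gm867 shares 25 bases and held 43 counts. The next gene upstream, Smarcb1, a chromatin remodelling subunit, differed between the shRNAs by -0.10 ± 0.05 on the log2 scale unstimulated (adjusted p = 0.174, edgeR) and by -0.04 ± 0.05 with IFN-β (adjusted p = 0.665).

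**Figure D1:**
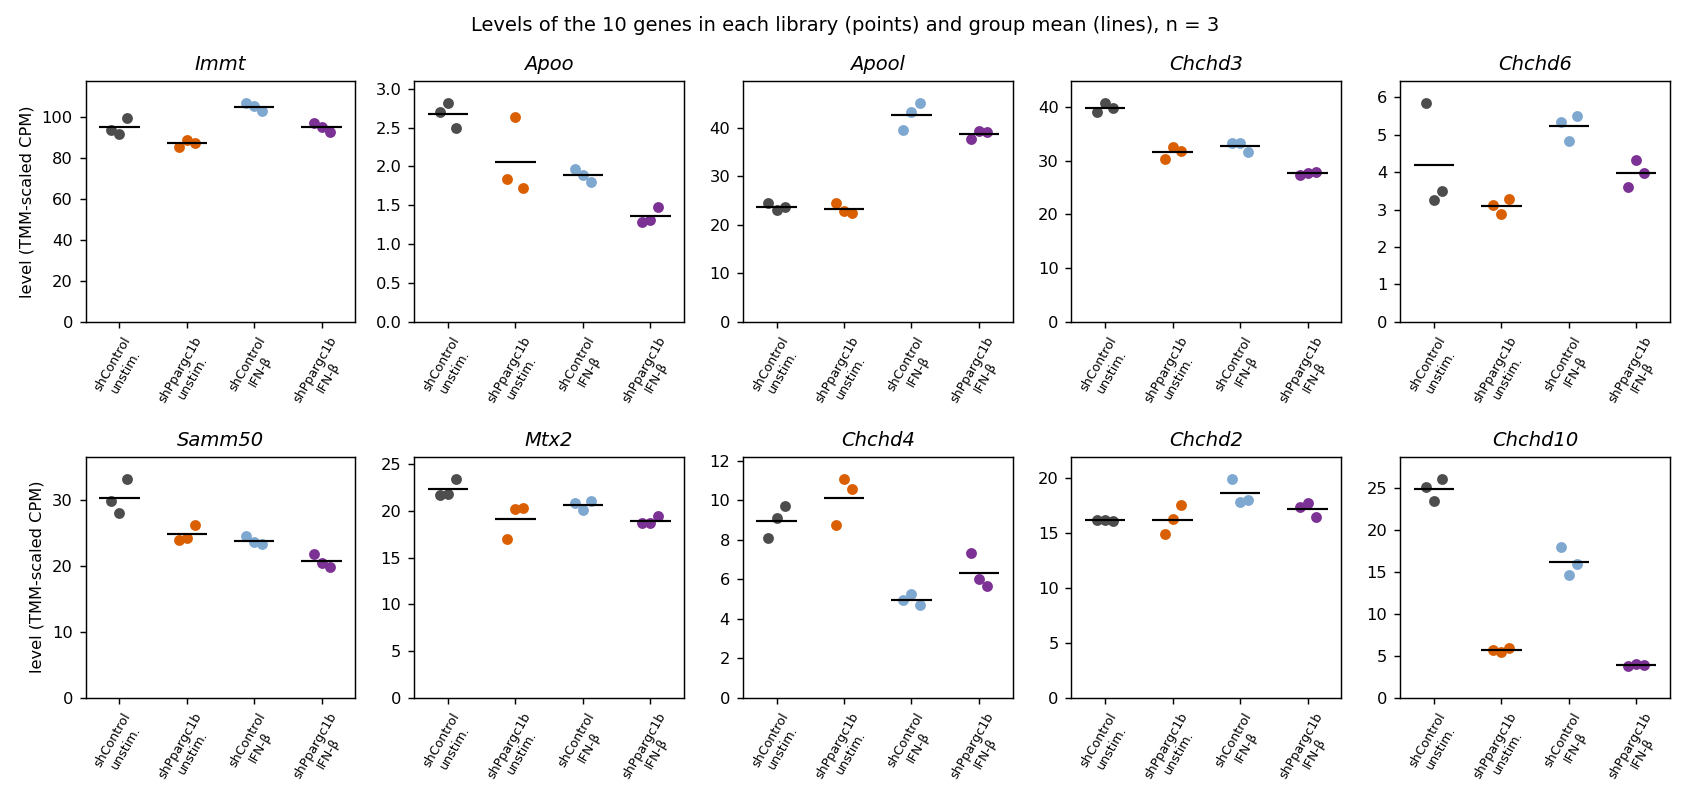
Level of each of the 10 genes (TMM-scaled CPM, axes from 0) in the 12 libraries, with points for libraries and lines for group means (n = 3). Chchd10 goes from 23.4 to 26.1 CPM in unstimulated shControl cells to 3.71 to 3.99 CPM in shPpargc1b cells with IFN-β, and 1 Chchd6 library at 5.84 CPM lies apart from its group.

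Chchd2 (ENSMUSG00000070493, chr5:129881156-129887470, minus strand) is the paralogue of Chchd10, and both proteins form a complex. Its levels were 16.2, 16.2 and 16.1 CPM in unstimulated shControl cells and 14.9, 16.2 and 17.5 CPM in unstimulated shPpargc1b cells. With IFN-β they were 19.9, 17.8 and 18.0 CPM in shControl and 17.4, 17.7 and 16.4 CPM in shPpargc1b cells. The unstimulated groups overlapped and the IFN-β groups did not. The knockdown log2 fold change was 0.01 ± 0.07 unstimulated, with a sign that turned when libraries were scaled by their totals (-0.01), and -0.11 ± 0.07 with IFN-β.

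IFN-β gave Chchd2 a log2 fold change of 0.20 ± 0.07 in shControl (adjusted p = 0.0235, edgeR) and 0.08 ± 0.07 in shPpargc1b cells (adjusted p = 0.363), but scaling by library totals turned both to -0.04 and -0.12. The shControl call was also lost when shControl IFN-β replicate 1 (adjusted p = 0.114) or any 1 of the unstimulated shControl replicates was left out, and without the filter on low counts (0.0890). The Chchd2 pseudogene Chchd2-ps held 50 counts over the 12 libraries.

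Per kilobase of annotated exon, Chchd10 stood above Chchd2 in control cells and below it in knockdown cells. The ratio of their levels per kilobase in single libraries was 2.24, 2.09 and 2.34 in unstimulated shControl cells and 1.295, 1.18 and 1.27 in shControl cells with IFN-β. In shPpargc1b cells it was 0.545, 0.476 and 0.486 unstimulated and 0.307, 0.325 and 0.340 with IFN-β. The 4 groups did not overlap, and means with the longest transcript as length were 2.14, 1.21, 0.485 and 0.313 in the same order. The knockdown part of this ratio follows from the values on which the set was selected.

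**Figure D2:**
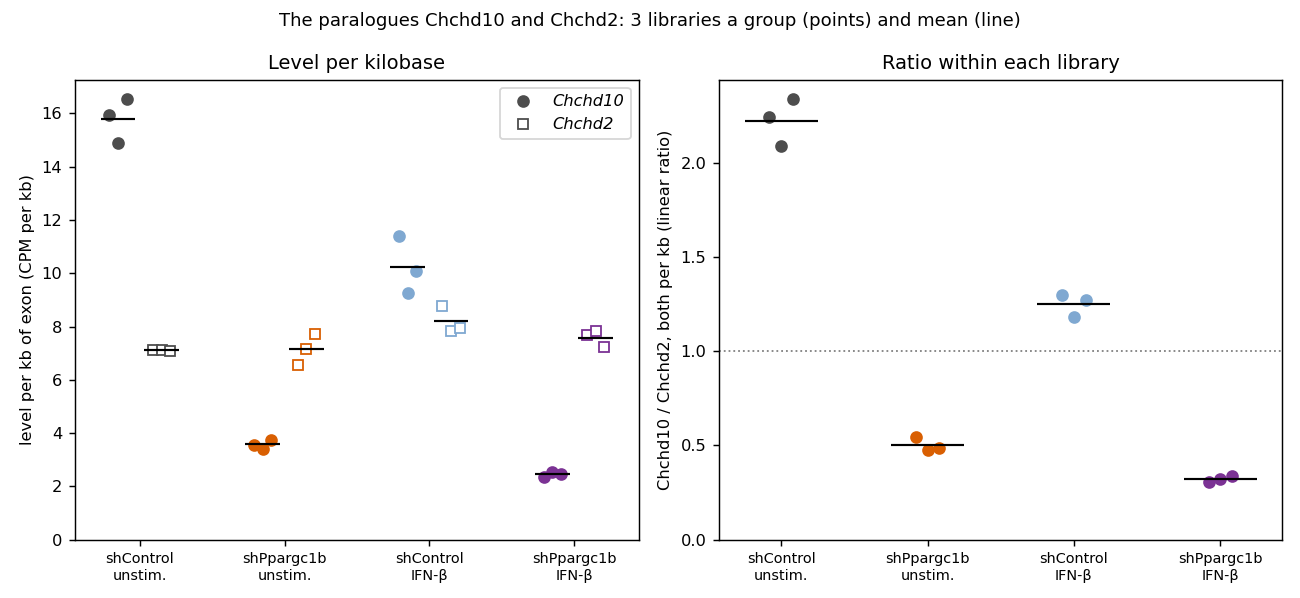
Left, level per kilobase of annotated exon (CPM per kb) of Chchd10 (filled circles) and Chchd2 (open squares) by library, with group means as lines. Right, the ratio Chchd10 to Chchd2 in each library, above 1 (dotted line) in the 6 shControl libraries and under 1 in the 6 shPpargc1b libraries.

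Among the 10 genes, Chchd10 had the highest level per kilobase of exon in unstimulated shControl cells, at 15.8 ± 0.849 CPM per kb (SD, n = 3), ahead of Chchd3 at 13.7 ± 0.306, whose libraries did not overlap with those of Chchd10. Immt followed at 8.36 ± 0.369, then Chchd2 at 7.11 ± 0.0287 and Apool at 6.81 ± 0.192, again without overlap between neighbours in this order. Chchd6 at 1.66 ± 0.567, Chchd4 at 1.72 ± 0.159 and Apoo at 2.13 ± 0.128 were the lowest, and the libraries of Chchd6 overlapped with those of both others. In shPpargc1b cells Chchd10 was at rank 7 of 10 in both conditions, at 3.57 ± 0.167 and 2.45 ± 0.0907 CPM per kb. Apool took rank 1 with IFN-β in both shRNAs, at 12.3 ± 0.804 and 11.1 ± 0.254 CPM per kb, overlapping with Chchd3 at rank 2 in shControl cells and not in shPpargc1b cells. This order depends on the length used. With the longest transcript in place of all annotated exons, Immt (11353 bases of exon but 3476 in its longest transcript) held rank 1 in every group and Chchd10 rank 3 in unstimulated shControl cells.

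Immt (ENSMUSG00000052337, chr6:71831331-71877388, plus strand) encodes MIC60, the core MICOS subunit that bends the membrane at the junction. It was at 93.4, 91.6 and 99.6 CPM in unstimulated shControl cells and at 85.4, 88.5 and 87.2 CPM in unstimulated shPpargc1b cells. With IFN-β its levels were 107, 105 and 103 CPM in shControl and 96.9, 95.2 and 92.6 CPM in shPpargc1b cells. The groups did not overlap in any of the 4 comparisons, although the differences were small. The knockdown log2 fold changes were -0.12 ± 0.04 and -0.15 ± 0.04.

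The IFN-β log2 fold changes of Immt were 0.15 ± 0.04 in shControl (adjusted p = 0.00624, edgeR) and 0.12 ± 0.04 in shPpargc1b cells (adjusted p = 0.0192), and both turned when libraries were scaled by their totals, to -0.09 and -0.08. The first call was lost without shControl unstimulated replicate 2 (adjusted p = 0.0630) and the second without shPpargc1b unstimulated replicate 1 (0.0552) or shPpargc1b IFN-β replicate 1 (0.0669). Both calls were also lost without the filter on low counts (0.0554 in shControl and 0.225 in shPpargc1b cells). An opposite-strand transcript, Gm44771, shares 185 exon bases with Immt and held 115 counts over the 12 libraries.

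Apool and Apoo encode the apolipoprotein-like MICOS subunits MIC27 and MIC26, which sit in the inner membrane, and moved in opposite directions with IFN-β. Apool (ENSMUSG00000025525, chrX:112311334-112372755, plus strand) was at 24.5, 23.1 and 23.7 CPM in unstimulated shControl cells and at 24.5, 22.9 and 22.5 CPM in unstimulated shPpargc1b cells. With IFN-β it was at 39.6, 43.3 and 45.1 CPM in shControl and at 37.8, 39.3 and 39.2 CPM in shPpargc1b cells. Every library with IFN-β was above every library without it. The log2 fold change with IFN-β was 0.85 ± 0.06 in shControl (1.80-fold, adjusted p = 3.86e-09, edgeR) and 0.74 ± 0.06 in shPpargc1b cells (1.67-fold, adjusted p = 2.80e-08), and it was 0.61 and 0.53 after scaling by library totals. The knockdown log2 fold changes were -0.03 ± 0.06 and -0.14 ± 0.05.

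Apoo (ENSMUSG00000079508, chrX:94367117-94417093, plus strand) was at 2.69, 2.82 and 2.50 CPM in unstimulated shControl cells and at 1.83, 2.63 and 1.73 CPM in unstimulated shPpargc1b cells. IFN-β-treated cells held 1.97, 1.89 and 1.80 CPM in shControl and 1.28, 1.31 and 1.48 CPM in shPpargc1b cells. Its CPM were the lowest of the 10 genes, with 65 to 180 counts a library, but its level per kilobase was not the lowest in every group. The knockdown groups overlapped without IFN-β through shPpargc1b replicate 2. IFN-β gave a log2 fold change of -0.51 ± 0.16 in shControl (adjusted p = 0.0175, edgeR) and -0.60 ± 0.17 in shPpargc1b cells (adjusted p = 0.00879).

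These Apoo calls were lost without shControl unstimulated replicate 2 (adjusted p = 0.0510) or shControl IFN-β replicate 3 (0.0596), and without shPpargc1b unstimulated replicate 2 (0.0673, log2 fold change -0.38). Its knockdown log2 fold changes were -0.37 ± 0.16 and -0.47 ± 0.17. The pseudogene Apoo-ps held 14 to 44 counts a library, so Apoo is uncertain where reads could be split between both.

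Chchd3 and Chchd6 encode MIC19 and MIC25, peripheral CHCHD subunits that attach to MIC60. Chchd3 (ENSMUSG00000053768, chr6:32790976-33060260, minus strand) was at 38.9, 40.7 and 39.7 CPM in unstimulated shControl cells and at 30.3, 32.5 and 31.8 CPM in unstimulated shPpargc1b cells. With IFN-β it was at 33.4, 33.3 and 31.5 CPM in shControl and at 27.3, 27.6 and 27.9 CPM in shPpargc1b cells. None of the 4 comparisons had overlapping groups. Its knockdown log2 fold changes were -0.34 ± 0.05 and -0.25 ± 0.05. IFN-β lowered Chchd3 by a log2 fold change of -0.28 ± 0.05 in shControl (adjusted p = 9.79e-05, edgeR) and -0.19 ± 0.05 in shPpargc1b cells (adjusted p = 0.00328), and both calls held without any single library.

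Chchd6 (ENSMUSG00000030086, chr6:89383146-89595652, minus strand) was at 5.84, 3.24 and 3.49 CPM in unstimulated shControl cells and at 3.12, 2.88 and 3.29 CPM in unstimulated shPpargc1b cells. With IFN-β its levels were 5.34, 4.82 and 5.50 CPM in shControl and 3.61, 4.33 and 3.99 CPM in shPpargc1b cells. The first unstimulated shControl library lay apart from its group and decided several values. The IFN-β log2 fold change in shControl was 0.32 ± 0.17 (adjusted p = 0.151, edgeR) with this library and 0.62 (adjusted p = 9.02e-04) without it. In shPpargc1b cells it was 0.36 ± 0.18 (adjusted p = 0.123), and 0.0160 was the adjusted p in the fit without that shControl library. The unstimulated knockdown log2 fold change was -0.44 ± 0.18 with it and -0.12 without it, and that with IFN-β was -0.39 ± 0.18.

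Samm50 and Mtx2 encode subunits of the outer membrane sorting and assembly machinery that MICOS contacts. Samm50 (ENSMUSG00000022437, chr15:84192241-84217267, plus strand) was at 29.9, 27.96 and 33.2 CPM in unstimulated shControl cells and at 24.0, 24.2 and 26.2 CPM in unstimulated shPpargc1b cells. With IFN-β it was at 24.5, 23.6 and 23.3 CPM in shControl and at 21.8, 20.4 and 19.9 CPM in shPpargc1b cells. The groups were separate in all 4 comparisons. IFN-β lowered it by a log2 fold change of -0.35 ± 0.07 in shControl (adjusted p = 3.56e-04, edgeR) and -0.26 ± 0.07 in shPpargc1b cells (adjusted p = 0.00512). The knockdown log2 fold changes were -0.29 ± 0.07 and -0.20 ± 0.07.

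Mtx2 (ENSMUSG00000027099, chr2:74825803-74878431, plus strand) was at 21.7, 21.8 and 23.5 CPM in unstimulated shControl cells and at 17.0, 20.2 and 20.3 CPM in unstimulated shPpargc1b cells. IFN-β-treated cells held 20.9, 20.1 and 21.1 CPM in shControl and 18.7, 18.7 and 19.5 CPM in shPpargc1b cells. Both knockdown comparisons were free of overlap, with log2 fold changes of -0.22 ± 0.07 and -0.13 ± 0.07. With IFN-β the log2 fold change was -0.11 ± 0.07 in shControl (adjusted p = 0.209, edgeR) and -0.02 ± 0.07 in shPpargc1b cells (adjusted p = 0.869), neither past the threshold of 0.05, but it passed after scaling by library totals (-0.35 and -0.22, adjusted p = 4.34e-04 and 0.0139).

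Chchd4 (ENSMUSG00000034203, chr6:91462172-91473546, minus strand) encodes MIA40, the receptor and oxidase of the disulfide relay, and was the member with higher levels in the knockdown. It was at 8.07, 9.09 and 9.70 CPM in unstimulated shControl cells and at 8.72, 11.1 and 10.6 CPM in unstimulated shPpargc1b cells. IFN-β-treated cells held 4.93, 5.24 and 4.71 CPM in shControl and 7.30, 5.99 and 5.63 CPM in shPpargc1b cells. The knockdown groups overlapped without IFN-β and not with it, at log2 fold changes of 0.18 ± 0.11 and 0.35 ± 0.12. IFN-β lowered Chchd4 by a log2 fold change of -0.85 ± 0.12 in shControl (0.553-fold, adjusted p = 1.80e-05, edgeR) and -0.69 ± 0.11 in shPpargc1b cells (0.621-fold, adjusted p = 1.58e-04), and every library with IFN-β lay below every library without it. Leaving out single libraries gave -0.94 to -0.81 and -0.80 to -0.61.

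Over the 10 genes, 5 were lower past an adjusted p of 0.05 in the unstimulated knockdown and 0 higher, where 11.1% of all tested genes were lower and 12.4% higher. With IFN-β 4 were lower and 1 higher, where 12.7% of all tested genes were lower and 11.5% higher. Separate groups, with no library overlapping, were found for 5 of 10 genes unstimulated, against 36.8% of all genes, and for 10 of 10 with IFN-β, against 38.7%. Median log2 fold changes were -0.26 and -0.17 over the 10 genes and -0.005 and -0.011 over all tested genes. As the knockdown contrast served to choose the set, nothing is read from these counts, and which genes made them up changed between alternatives. The unstimulated count was 3 without shPpargc1b unstimulated replicate 1 or shControl unstimulated replicate 3, and the count with IFN-β was 3 without any of the shControl IFN-β replicates or shPpargc1b IFN-β replicates 2 or 3. Over all tested genes the unstimulated number called also went from 4295 to 3988 and 3650 in these fits. With IFN-β it went from 4414 to between 3305 and 3918.

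**Figure D3:**
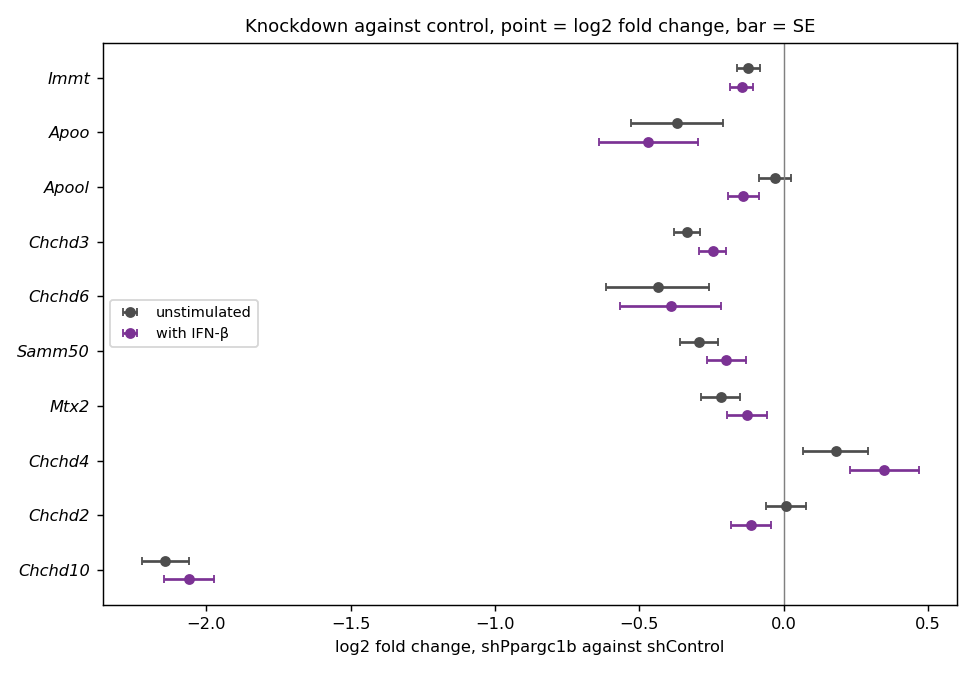
Log2 fold change of shPpargc1b against shControl for the 10 genes without (grey) and with (purple) IFN-β, as points with bars for the SE (n = 3 against 3). Chchd10 lies at -2.14 and -2.06, while the other 9 genes lie between -0.47 and 0.35.

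With IFN-β in shControl cells, 3 of the 10 genes rose (Apool, Chchd2 and Immt), against 23.7% of all tested genes, and 5 fell (Chchd4, Chchd10, Apoo, Samm50 and Chchd3), against 24.6%. In shPpargc1b cells 2 rose (Apool and Immt), against 21.4%, and the same 5 fell, against 21.2%. Scaled by library totals, which moved the median of all genes to -0.27 and -0.22, 1 gene rose and 6 fell in each shRNA, the rises of Chchd2 and Immt turning into values below 0. Libraries with and without IFN-β were fully separate for 9 of 10 genes in shControl, against 56.7% of all genes, and for 8 of 10 in shPpargc1b cells, against 50.1%. In an exact two-sided permutation test of 3 against 3 libraries, 17 of these 20 comparisons gave p = 0.1, the smallest value this design allows. Full separation always gives this value, so the test restates the counts of separate genes and adds nothing to them. Without shControl unstimulated replicate 2, the number past the threshold in shControl cells was 5 instead of 8, as Chchd2, Immt and Apoo no longer passed.

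**Figure D4:**
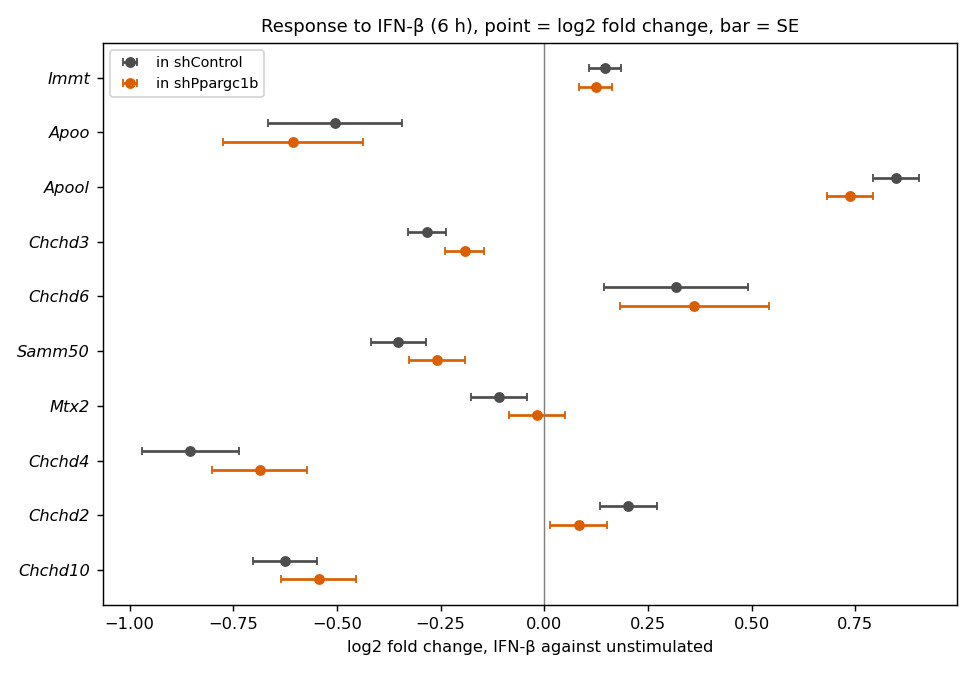
Log2 fold change with IFN-β (6 h) against unstimulated for the 10 genes in shControl (grey) and shPpargc1b (orange) cells, as points with bars for the SE (n = 3 against 3). Apool lies highest at 0.85 and 0.74 and Chchd4 lowest at -0.85 and -0.69, with both shRNAs on the same side of 0 for each gene.

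Whether the knockdown changed the response to IFN-β was tested as an interaction. The differences ranged from -0.12 ± 0.10 (Chchd2) to 0.17 ± 0.16 (Chchd4) on the log2 scale. By edgeR 0 of 10 genes passed, the smallest adjusted p being 0.708 (Apool, -0.11 ± 0.08). None of the 10 had an unadjusted p under 0.05, and DESeq2 also called 0. Over all tested genes 0.0603% passed with a higher and 0.669% with a lower value. The SE of 0.06 to 0.25 sets the size of difference that could have been seen, and similar responses are not shown by these values.

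The other parts of the same machinery were described with 46 further genes in 4 lists, all of them tested. Up to 4 genes a list are named, those with the smallest p for the knockdown averaged over both treatments. Their knockdown p-values below come from the same libraries that picked them. In the unstimulated knockdown 1 of the 46 rose and 7 fell, and with IFN-β 3 rose and 8 fell, with medians of -0.07 and -0.08. Of all tested genes, 12.4% and 11.5% were higher and 11.1% and 12.7% lower. With IFN-β added, 6 rose and 22 fell in shControl cells and 6 rose and 16 fell in shPpargc1b cells, at medians of -0.17 and -0.14, and scaling by library totals gave 3 and 36, and 2 and 34. Over all tested genes 23.7% rose and 24.6% fell in shControl and 21.4% rose and 21.2% fell in shPpargc1b cells. In the main edgeR fit 0 of the 46 passed in the interaction, although 6 had an unadjusted p under 0.05 and Cmc2 and Pgs1 passed with DESeq2 (adjusted p = 0.0161 and 0.0400). Cmc2 also passed by edgeR without the filter on low counts (adjusted p = 0.00273) and without shControl unstimulated replicate 2 (0.0370).

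Among the 18 other twin CX9C proteins, 2 fell in the unstimulated knockdown, and 4 fell and 1 rose with IFN-β. Of all tested genes 11.1% were lower unstimulated, the same share as 2 of 18, and 12.7% were lower and 11.5% higher with IFN-β. Uqcrh, the hinge protein of respiratory complex III, was at 65.5, 57.2 and 63.5 CPM in unstimulated shControl and 41.6, 39.4 and 42.2 CPM in shPpargc1b cells, without overlap, at a log2 fold change of -0.60 ± 0.06 (adjusted p = 2.65e-06, edgeR). With IFN-β its knockdown value was -0.50 ± 0.06 (adjusted p = 1.73e-05). Cox6b1, a subunit of complex IV, fell by -0.34 ± 0.05 (adjusted p = 8.47e-05) and -0.23 ± 0.05 (adjusted p = 0.00222). Cmc2, a complex IV assembly factor, was at 5.05, 4.23 and 4.71 CPM in shControl and at 11.3, 8.20 and 8.56 CPM in shPpargc1b cells with IFN-β, a rise of 1.0 ± 0.14 on the log2 scale (adjusted p = 7.18e-05). Without IFN-β the Cmc2 value was 0.28 ± 0.14 (adjusted p = 0.167). Ndufb7, a complex I subunit (-0.19 ± 0.06, adjusted p = 0.0278), and Coa5, a complex IV assembly factor named here only because it was called (-0.15 ± 0.04, adjusted p = 0.0103), made up the rest of the genes lower in the knockdown with IFN-β. The Ndufb7 call was lost under most omissions of a single library.

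Chchd4's partners in the disulfide relay and the small TIM chaperones, 8 genes, fell with IFN-β in 6 of 8 cases in shControl and 5 of 8 in shPpargc1b cells, with 0 higher in either, beside the 24.6% and 21.2% of all genes that fell. Timm9, a chaperone for carrier proteins, went from 9.41, 8.83 and 10.1 CPM to 4.23, 4.33 and 3.57 CPM in shControl cells, without overlap, a log2 fold change of -1.23 ± 0.13 (adjusted p = 1.25e-06, edgeR), and changed by -0.79 ± 0.13 in shPpargc1b cells (adjusted p = 1.16e-04). Gfer, the sulfhydryl oxidase that reoxidises Chchd4, fell by -0.56 ± 0.09 (adjusted p = 1.33e-04) and -0.32 ± 0.09 (adjusted p = 0.0111), the second call being lost without shPpargc1b IFN-β replicate 3 (adjusted p = 0.0614). Aifm1, which anchors Chchd4 at the inner membrane, fell by -0.17 ± 0.06 (adjusted p = 0.0344) and -0.35 ± 0.06 (adjusted p = 3.94e-04), the first being lost without any 1 of 4 shControl libraries.

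In the knockdown 0 of these 8 genes changed unstimulated, by edgeR, with 1 at an unadjusted p under 0.05. Of all tested genes 12.4% were higher and 11.1% lower unstimulated, and 11.5% were higher and 12.7% lower with IFN-β. With IFN-β Gfer (0.31 ± 0.10, adjusted p = 0.0292) and Timm9 (0.43 ± 0.14, adjusted p = 0.0306) were higher and Aifm1 (-0.21 ± 0.06, adjusted p = 0.0239) and Timm10b, another small TIM chaperone (-0.28 ± 0.10, adjusted p = 0.0467), lower. Each of these 4 calls was lost without shPpargc1b IFN-β replicate 1 and under several other single-library omissions.

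**Figure D5:**
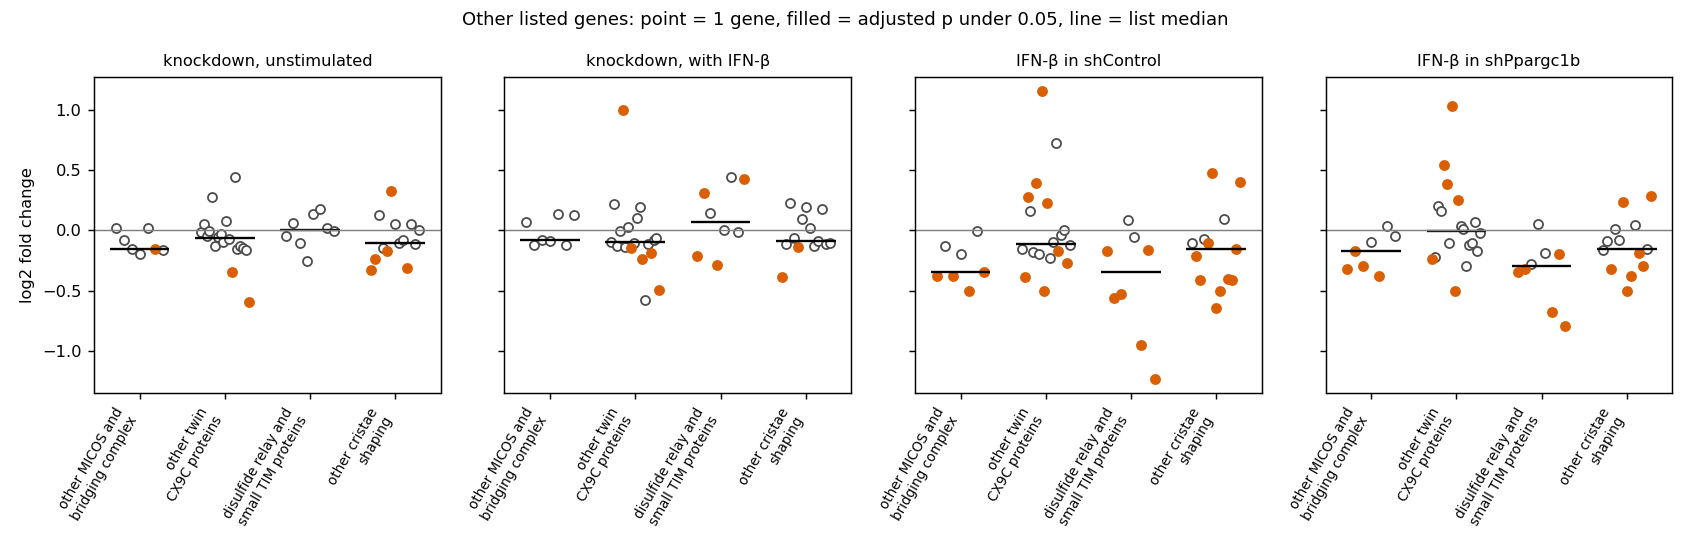
Log2 fold changes of the 46 other listed genes by list in 4 comparisons, 1 point a gene, filled where the adjusted p was under 0.05, with lines for list medians. In the panels of IFN-β against unstimulated, the filled points of the relay and small TIM list (8 genes) and of the other MICOS list (7 genes) all lie below 0.

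Of the 7 other MICOS and bridging genes, 4 fell with IFN-β in each shRNA and 0 rose, beside the 24.6% and 21.2% of all genes that fell. Micos13, whose product stabilises the MIC10 arm of the complex, fell by -0.37 ± 0.08 in shControl (adjusted p = 8.07e-04, edgeR) and -0.30 ± 0.08 in shPpargc1b cells (adjusted p = 0.00554). Micos10, the other membrane-bending subunit, was at -0.13 ± 0.05 (adjusted p = 0.0600) and fell by -0.17 ± 0.05 (adjusted p = 0.0168), a call lost without shPpargc1b unstimulated replicate 2 (0.0523) or 3 (0.0855) or shPpargc1b IFN-β replicate 3 (0.0697). In the knockdown 1 of the 7 fell unstimulated, beside 11.1% of all genes. It was the outer membrane carrier Slc25a46 (-0.15 ± 0.05, adjusted p = 0.0384), a call lost without any 1 of 5 libraries. With IFN-β 0 passed by edgeR, with 2 at an unadjusted p under 0.05, beside 12.7% of all genes lower and 11.5% higher. Mtx1, the metaxin partner of Mtx2, had knockdown values of -0.19 ± 0.09 (adjusted p = 0.139) and -0.09 ± 0.09 (adjusted p = 0.543).

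The last list held 13 other genes that shape cristae, among them those of ATP synthase dimerisation and of cardiolipin synthesis. In the unstimulated knockdown 4 fell and 1 rose, beside 11.1% and 12.4% of all genes. Atp5k and Atp5l, the subunits e and g that hold ATP synthase dimers together, fell by -0.33 ± 0.09 (adjusted p = 0.0118, edgeR) and -0.24 ± 0.05 (adjusted p = 0.00265). Opa1, the inner membrane fusion protein that tightens cristae junctions, fell by -0.17 ± 0.03 (adjusted p = 0.00165). Pgs1 and Ptpmt1 encode consecutive enzymes of cardiolipin synthesis and went opposite ways, Pgs1 up by 0.33 ± 0.05 (adjusted p = 1.00e-04) and Ptpmt1, named here because it was called, down by -0.31 ± 0.06 (adjusted p = 0.00148). With IFN-β Atp5k (-0.39 ± 0.09, adjusted p = 0.00471) and Opa1 (-0.14 ± 0.03, adjusted p = 0.00725) were the 2 that fell in the knockdown, beside 12.7% of all genes. This Opa1 call was lost without the filter on low counts (adjusted p = 0.132). The Atp5k call was lost unstimulated without shControl unstimulated replicate 1 (adjusted p = 0.0651).

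The genes whose pattern over the 12 libraries was most like that of Chchd10 were sought by the root mean square difference of log2 CPM centred on each gene's mean. The search covered 8767 tested genes with a symbol and a mean log2 CPM of at least 3. The nearest was Mrc1, the mannose receptor, at 0.384, followed by Nhsl2 at 0.402, Arhgap15 at 0.431, Abcd2, a peroxisomal fatty acid transporter, at 0.459 and Asb4 at 0.479. A gene with no change at all would be at 1.09. Mrc1 was at 319, 268 and 334 CPM in unstimulated shControl cells and at 102, 98.6 and 122 CPM in unstimulated shPpargc1b cells, without overlap. This separation follows from the choice by likeness to Chchd10 and is only a description. None of the other 9 genes of the set was among these 5, but members below that floor, such as Apoo and Chchd6, were not compared. The measure also counts the size of a change, so members with small changes were bound to lie far from Chchd10.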

How the data were processed

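RNA was ribosome-depleted total RNA. The authors trimmed reads, aligned them to mm10 and counted them per GENCODE gene, and the deposited values are raw counts. The submitters' processing notes name Trim Galore 0.6.0 and STAR 2.7.8a, and the strand setting of the counting is not given in the sources used here. From the counts of all 12 libraries, edgeR 4.0.16 in R 4.3.3 (filterByExpr with a minimum count of 10, TMM, quasi-likelihood F-tests, 1 mean per group, Benjamini-Hochberg adjustment over 18228 genes) gave log2 fold changes, with SE as the absolute log2 fold change over the root of F. CPM values use TMM library sizes. DESeq2 1.42.0, other scalings, no filter, separate fits of the 6 libraries compared and omission of each library were alternatives. Scripts were tested on simulated data. The members, gene lists and markers were chosen with earlier results of these data known. Named genes were the members, Ppargc1b, up to 4 genes a list with the smallest p for the knockdown averaged over treatments, the 5 genes most like Chchd10, its neighbours and member pseudogenes. Lengths came from the GRCm38 annotation. Replicate numbers follow accession order and pair no samples.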

Additional observations from a re-analysis of the deposited data

How the results depend on the processing

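The number of members past the threshold in the unstimulated knockdown was 5, 3 when only the 6 libraries compared were fitted, and 3 to 5 when single libraries were left out. Over all genes it was 4295, 3943 and 3359 to 4484 in the same order. With IFN-β the number of members was 5, 3 without the filter on low counts, and 3 to 5 without single libraries. Over all genes it was 4414, 4259 and 3305 to 4480, and 4096 with only the 6 libraries compared. For the other listed genes in the knockdown with IFN-β it was 11, 7 without the filter, 7 with only the 6 libraries compared, and 6 to 10 without single libraries. Members called with IFN-β in shControl numbered 5 to 8 without single libraries, and the counts of members for IFN-β in shPpargc1b and for the interaction moved by no more than 1.5 times under any alternative run. Scaling by library totals reversed Chchd2 in the unstimulated knockdown (-0.0065) and with IFN-β in shControl (-0.037) and shPpargc1b (-0.12), Immt with IFN-β in shControl (-0.093) and shPpargc1b (-0.079), and Immt in the interaction (0.015). Its construction leaves out the TMM factors, which were lower with IFN-β. Without single libraries, values crossed 0 for Chchd2 in the unstimulated knockdown (-0.049 to 0.066), Mtx2 with IFN-β in shPpargc1b (-0.092 to 0.029), and the interactions of Chchd6 (-0.25 to 0.22), Immt (-0.039 to 0.020) and Apoo (-0.20 to 0.14), and the cause was not tested. Apoo rested on 65 to 180 counts a library, which limits its precision.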
